A study of Drosophila melanogaster with 62 samples.

Results

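The genes described are 8 core genes of programmed cell death in Drosophila: reaper (rpr), grim, sickle (skl), head involution defective (hid), Diap1, Dark, Dronc and Dcp-1. They were taken by gene symbol from a table of 17753 fly genes, and all 8 were found in both the total RNA and the nuclear RNA counts. The series measured RNA in fly embryos in which a histone acetyltransferase or deacetylase had been knocked down, with 62 libraries in 22 groups, of which 16 groups had 3 libraries, 5 had 2 and 1 had 4. Total RNA came from 20 hand-sorted embryos per biological replicate at stage 2, when the embryo still holds mostly RNA loaded by the mother, or at stage 5, the blastoderm stage at which its own genes become active. Nuclear RNA came from nuclei of 300 stage 5 embryos, with ERCC spike-in RNA added.

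The main set held control embryos and embryos with knockdown of Nejire (the fly CBP/p300 acetyltransferase), Gcn5 (the acetyltransferase of SAGA-type complexes), HDAC1 or HDAC3, each at both stages. A second set, labelled batch1, held its own controls with knockdown of Enok (a MYST-family acetyltransferase) or HDAC6 (a mainly cytoplasmic deacetylase). At stage 5, 4 further groups carried Nejire or Gcn5 knockdown together with a wild-type or a catalytically dead version of the same protein. The library names give the crosses as T180xN174 for the control, NI715xN174 for Nejire, T400xN174 for Gcn5, T341xN174 for HDAC1, T103xN174 for HDAC3, T337xN174 for Enok and T344xN174 for HDAC6. The rescues are named T6xN546 and T6xN547 for Nejire and 400x540 and 400x541 for Gcn5. Each knockdown thus has a parent of its own, and an effect of the knockdown cannot be told apart from one of that line. The nuclear RNA libraries are named WT for the controls and nejKD for the knockdown, and these names give no cross. They do not say whether the nuclear controls came from the control cross of the total RNA. In batch1, 1 of the 3 stage 2 control libraries and 2 of the 4 at stage 5 are named CtrlAc-KD and the others Ctrl-KD, and what this difference marks was not given in the sources used here. HDAC6 knockdown stage 5 replicate 2 is named stage 5 in its title and stage 2 in its tissue field. Its rpr level was 23.1 CPM (counts scaled to library size), against 0 in both HDAC6 knockdown libraries at stage 2 and 13.5 in the other one at stage 5.

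Cell death in the fly is switched on by a short chain of proteins. Rpr, Grim, Skl and Hid bind the inhibitor of apoptosis Diap1, a ubiquitin ligase that otherwise holds caspases in check. Once Diap1 is displaced, Dark (the fly Apaf-1) assembles the initiator caspase Dronc into an active complex, and Dronc cleaves effector caspases such as Dcp-1. In the embryo, transcription of the antagonist genes is the usual trigger, and dying cells are first seen well after the blastoderm stage.

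Libraries held 2450013 to 40368054 counts in total RNA and 14773164 to 20669647 in nuclear RNA. The targeted gene was lower in its own knockdown at stage 5, with log2 fold changes of -1.96 for nej, -2.84 for Gcn5, -2.17 for HDAC1, -2.21 for enok and -1.48 for HDAC6. Of the 5 targeted genes with counts, the gene knocked down included, 4 were lower than in the controls in Gcn5 knockdown and 5 in that of HDAC1. Over all genes tested, 24.3% and 28.5% were lower there. In Nejire, HDAC3, Enok and HDAC6 knockdown 1 of the 5 was lower. In Gcn5 and HDAC1 knockdown nej was among the lower genes, at 367 ± 111 and 435 ± 119 CPM against 1027 ± 538 in the controls (SD, n = 2, 3 and 3). The HDAC3 row had 0 counts in every library, so that this knockdown could not be checked. The blastoderm stage was checked with 15 zygotic markers (such as Kr, eve and sna), all of which were higher at stage 5 than at stage 2 in both control sets, and 6 follicle cell markers summed to no more than 3.22 CPM in any total RNA group at stage 5. These are whole-embryo samples, in which fewer cells expressing a gene and less RNA per cell cannot be told apart.

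The 4 antagonist genes lie together on the left arm of chromosome 3, all on the minus strand, over 272.2 kb. In dm6 coordinates, hid is at chr3L:18167745-18185641, - strand, grim at chr3L:18302719-18304417, - strand, rpr at chr3L:18397535-18398435, - strand and skl at chr3L:18438561-18439942, - strand. All 4 are protein-coding genes, and the gaps between neighbours are 117.1, 93.1 and 40.1 kb. The first gap holds 10 annotated genes, 4 of them protein-coding, and each of the others holds 1 non-coding gene. Diap1 (chr3L:16038410-16051034, - strand) and Dronc (chr3L:9968479-9971002, + strand) lie elsewhere on the same arm, and Dark (chr2R:17020027-17026703, + strand) and Dcp-1 (chr2R:23551313-23553547, + strand) lie on the right arm of chromosome 2. For grim, 75.9% of the exon bases are shared with 2 non-coding genes (asRNA:CR45974 and lncRNA:CR45975), and 31.8% are shared on its own strand. For Dark 56.9% are shared with an antisense gene. Whether the counting used strand is not given in the sources used here, so reads of these overlapping genes cannot be assigned with certainty.

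In control embryos rpr, grim and skl were at or near 0 at stage 2, while RNA of the machinery they act on was already present. Per kilobase of exon, the main control set at stage 2 held 103 CPM per kb of Dronc, 73.0 of Diap1, 37.9 of Dcp-1 and 12.6 of Dark, but 0.697 of hid and no count of rpr or grim. At stage 5, Dronc was at 106, Dcp-1 at 81.1, Diap1 at 32.9 and Dark at 27.9 CPM per kb, followed by rpr at 13.4, hid at 5.52, skl at 3.95 and grim at 0.127. Thus rpr had the highest counts per length of the antagonists at stage 5, and grim the lowest. For grim this level is uncertain, because most of its exon bases are shared with other genes.

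**Figure D1:**
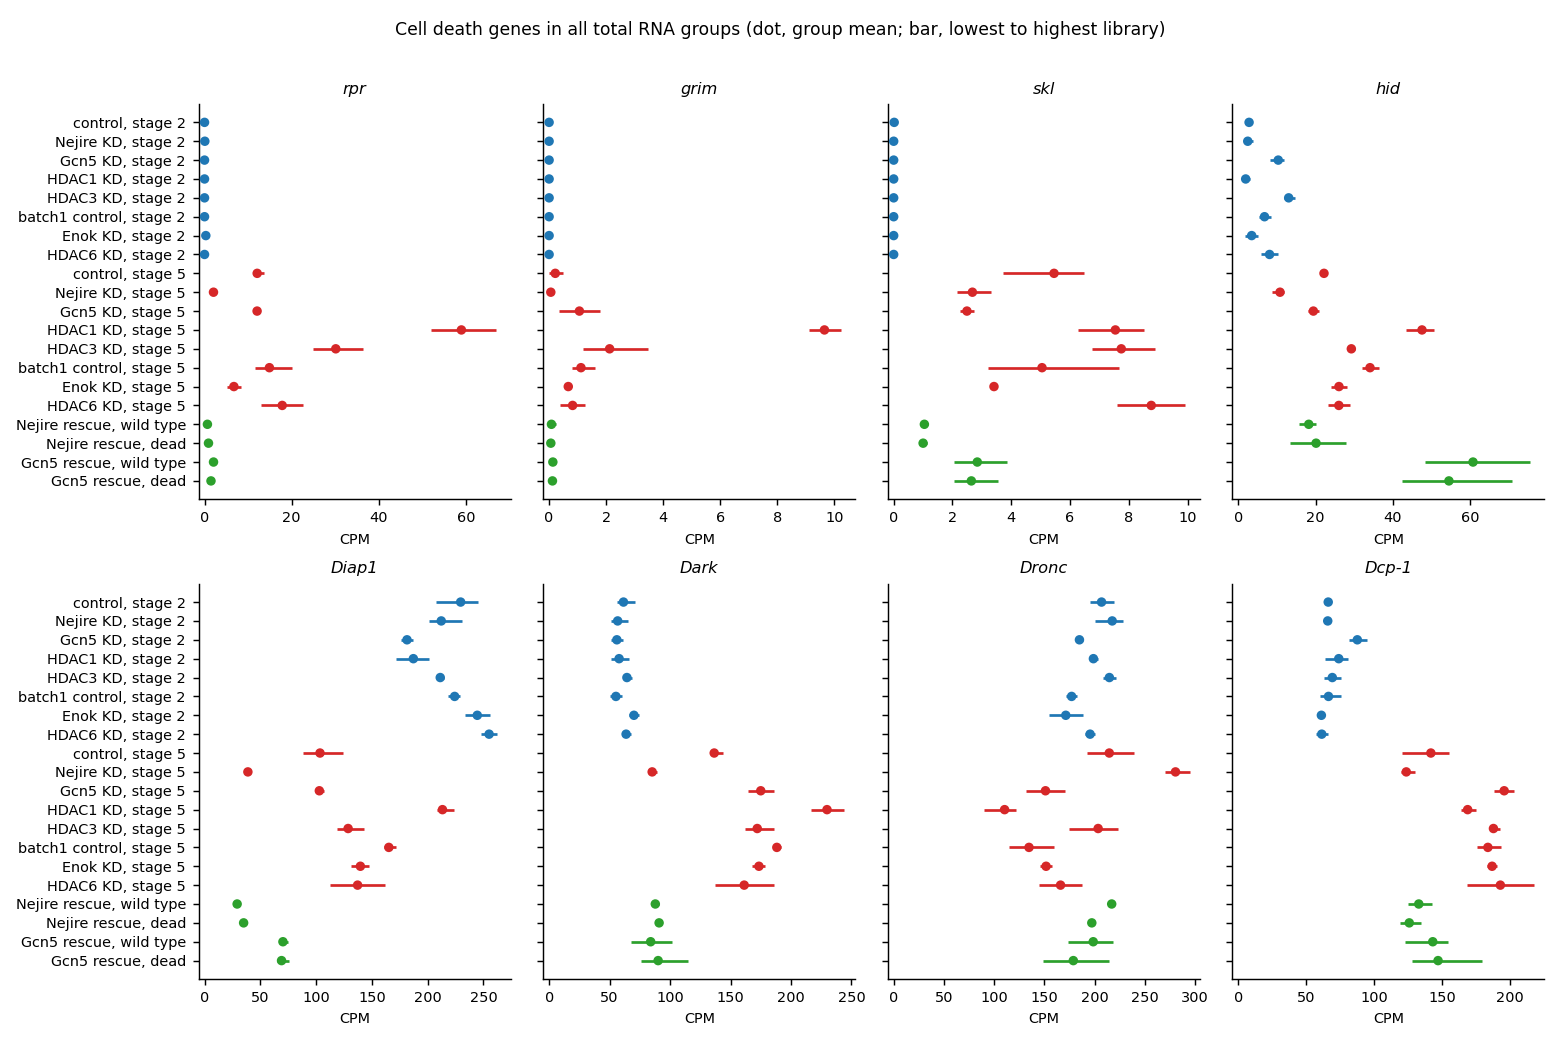
Level of each gene in the 20 total RNA groups on one common scale (horizontal axis, CPM, a separate linear range for each gene). Dots are group means and bars run from the lowest to the highest library; stage 2 groups are blue, stage 5 groups red and rescues green. For rpr, HDAC1 knockdown at stage 5 stands highest with a mean of 59.0 CPM, and the stage 2 groups lie at or near 0.

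The first comparison asked how the 8 genes change as the embryo's genome becomes active, in the main controls at both stages. Of the 7 members tested, 6 rose and 1 fell (edgeR quasi-likelihood test, Benjamini-Hochberg adjusted over all genes), where 79.8% (42.5% higher and 37.3% lower) of all genes tested passed. For rpr, the stage 5 libraries held 11.9, 14.4 and 12.4 CPM and all 3 stage 2 libraries 0, a total of 209 counts against 0. With a floor of 3 counts over the stage 2 group, rpr was at least 211-fold higher at stage 5. skl went from 1 count at stage 2 to 3.98, 6.91 and 6.60 CPM at stage 5, a ratio of 279 with a counting interval of 48.8 to 11130. grim had 5 counts at stage 5 and 0 at stage 2, too few to be tested.

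hid, the one antagonist with RNA in the stage 2 embryo, stood at 1.82, 2.85 and 2.87 CPM there and at 23.1, 24.4 and 23.5 CPM at stage 5. Its groups did not overlap, and it rose by 3.18 ± 0.20 (SE), adjusted p = 6.4e-07. Diap1, the inhibitor, went the other way, from 215, 216 and 188 CPM to 94.6, 105 and 132 CPM, with a log2 fold change of -0.91 ± 0.14 (SE), adjusted p = 2.8e-04. The adaptor Dark rose from 55.2 ± 6.48 to 146 ± 6.30 CPM (SD, n = 3 each; log2 fold change 1.40 ± 0.12 (SE), edgeR adjusted p = 5.4e-06). The effector caspase Dcp-1 rose from 59.5 ± 1.79 to 152 ± 19.4 CPM (SD, n = 3 each; log2 fold change 1.35 ± 0.12 (SE), edgeR adjusted p = 8.3e-06). Dronc, already abundant at stage 2, changed little, from 186 ± 8.17 to 229 ± 24.1 CPM (SD, n = 3 each; log2 fold change 0.31 ± 0.11 (SE), edgeR adjusted p = 0.0331), and this call ended when any of 4 single libraries was left out, with an adjusted p of 0.0882 without stage 5 control replicate 2 and 0.0913, 0.0912 and 0.137 without stage 2 control replicates 1, 2 and 3. It also ended with scaling to stable genes (adjusted p = 0.191), with no filter of low counts (0.238) and with a replicate block (0.0736).

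The batch1 controls showed the same order for the antagonists and another picture for Diap1. Here 5 of the 7 members tested rose and 0 fell, where 87.2% (48.9% higher and 38.3% lower) of all genes passed. rpr had 22.1, 14.2, 12.8 and 17.1 CPM at stage 5 and 0 at stage 2, at least 131-fold higher. Replicates 2 and 3 among these 4 libraries are those named CtrlAc-KD, and they are the lower pair. skl was at least 53.7-fold and grim at least 10.4-fold higher at stage 5, each from 0 counts at stage 2. hid rose from 7.33, 5.63 and 4.62 CPM to 38.4, 35.6, 39.7 and 37.5 CPM, a log2 fold change of 2.71 ± 0.16 (SE), adjusted p = 1.5e-09. Diap1 stood at 197, 194 and 189.7 CPM at stage 2 and 182, 191, 179.5 and 181 CPM at stage 5, so that the groups overlapped and no change passed the test (-0.08 ± 0.08 (SE), adjusted p = 0.373). Dark (log2 fold change 2.13 ± 0.10 (SE), adjusted p = 6.3e-11) and Dcp-1 (1.83 ± 0.10 (SE), adjusted p = 6.4e-10) rose, and Dronc did not pass (-0.03 ± 0.10 (SE), adjusted p = 0.814).

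The 2 stage 5 control sets also differed in markers of embryo age, which bears on every comparison that uses them. The sum over 10 maternal markers, such as smg and nanos, was 2247 to 3839 CPM in the main stage 5 controls and 766 to 949.5 CPM in batch1. The sum over 8 later-embryo markers, mostly elav, was 90.5 to 109 against 207 to 256 CPM. On the common scale, hid was 22.2 ± 0.670 CPM in the main set and 34.1 ± 1.85 in batch1 (SD, n = 3 and 4), and Diap1 104 ± 18.3 against 165 ± 4.74. The part of stage timing in these differences was not tested.

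In Nejire knockdown at stage 5, rpr, skl, hid and Diap1 were all lower than in the controls. Of the 8 members, all tested, 5 fell and 1 rose, where 37.9% (16.1% higher and 21.9% lower) of all genes passed. The median log2 fold change of the members was -1.01, against 0.01 over all genes.

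rpr held 12.2, 14.3 and 11.9 CPM in the main stage 5 controls and 1.42, 2.84 and 2.28 CPM in the Nejire knockdown. The groups lay far apart, and the log2 fold change of rpr was -2.66 ± 0.25 (SE), adjusted p = 1.9e-07 in edgeR's test. skl, a weaker antagonist, held 4.06, 6.85 and 6.33 CPM in the controls and 2.76, 2.27 and 3.51 in the knockdown, where every library was lower (-1.01 ± 0.30 (SE), adjusted p = 0.0126). hid held 23.6, 24.2 and 22.6 CPM in the controls and 12.7, 9.27 and 12.5 in the knockdown. All 3 knockdown libraries of hid lay below all controls, with a log2 fold change of -1.02 ± 0.15 (SE), adjusted p = 4.8e-05. grim was barely detected, with 1 count in the knockdown and 5 in the controls (-2.36 ± 1.40 (SE), adjusted p = 0.198).

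Diap1, whose product the antagonists bind, fell from 96.5, 104 and 127 CPM to 41.1, 42.0 and 40.8 CPM. The knockdown libraries were nearly equal, and the log2 fold change was -1.39 ± 0.12 (SE), adjusted p = 3.3e-08. Dark fell from 145, 152 and 136 CPM to 95.2, 89.3 and 87.3 CPM (-0.67 ± 0.10 (SE), adjusted p = 2.7e-05). Dronc was the exception and rose, from 232, 252 and 198 CPM to 288, 311 and 295 CPM (0.39 ± 0.14 (SE), adjusted p = 0.0316). Dcp-1 was at 149.8 ± 16.4 CPM in the controls and 132 ± 6.90 in the knockdown (SD, n = 3 each) and did not pass (-0.19 ± 0.10 (SE), adjusted p = 0.148). The call of skl ended without control replicate 2 (adjusted p = 0.0944), and that of Dronc without control replicate 3 (edgeR adjusted p = 0.107), knockdown replicate 2 (0.0877) or knockdown replicate 3 (0.056). The call of skl also ended with both groups fitted alone (adjusted p = 0.0533), and that of Dronc with scaling to genes stable between stages (edgeR adjusted p = 0.0735). Zygotic markers moved with these genes: 15 of 15 fell, from a sum of 2243 to 2637 CPM to 487 to 737 CPM, while maternal markers summed to 3897 to 4778 CPM and later-embryo markers to 16.6 to 29.7 CPM; their part in the result was not tested.

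**Figure D2:**
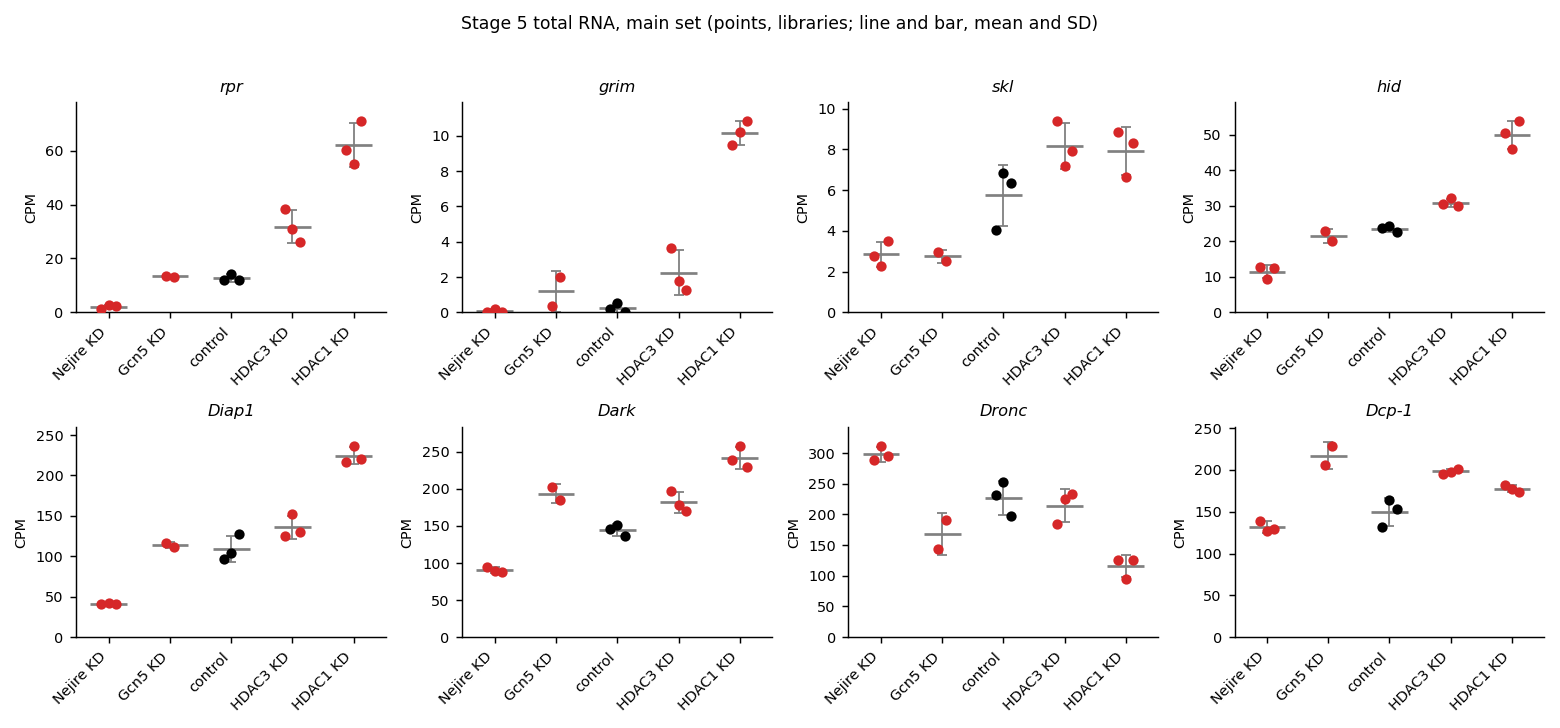
CPM of each gene in the main set at stage 5 (vertical axes, linear from 0, a separate range for each gene). Points are libraries, black for controls and red for knockdowns, with the mean and SD as line and bar (bars are cut at 0). rpr runs from 1.42 to 2.84 CPM in Nejire knockdown and from 55.0 to 70.8 CPM in HDAC1 knockdown, with the controls between.

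Genes beside the cluster gave a view of the neighbourhood. geko, the nearest expressed coding gene on the far side of hid, had a group mean of 145 CPM in the stage 5 controls and 22.9 CPM in the Nejire knockdown, a log2 fold change of -2.63 (edgeR adjusted p = 5.7e-08). Cyp312a1, further out, fell, with a log2 fold change of -5.27 (edgeR adjusted p = 6.1e-08). CG32196, beyond skl, did not pass (log2 fold change 0.00, adjusted p = 0.997).

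In HDAC1 knockdown at stage 5, rpr, grim and hid were higher than in the controls, and so was Diap1. 6 members rose and 1 fell, where 56% (27.5% higher and 28.5% lower) of all genes passed, and the members' median was 0.89 against 0.03 over all genes. rpr reached 60.3, 55.0 and 70.8 CPM, above every control, a log2 fold change of 2.26 ± 0.19 (SE), adjusted p = 5.2e-08. grim, at 1, 4 and 0 counts in the 3 controls, reached 124, 40 and 56 counts, or 9.46, 10.2 and 10.8 CPM. This made grim the member with the largest fold change there (4.96 ± 0.66 (SE), adjusted p = 6.3e-06), and its fitted size depends on the 5 control counts. hid rose to 50.4, 45.9 and 53.7 CPM, from 22.6 to 24.2 CPM in the controls (1.09 ± 0.14 (SE), adjusted p = 6.5e-06). skl, at 8.85, 6.62 and 8.30 CPM, overlapped the controls and did not pass (0.49 ± 0.27 (SE), adjusted p = 0.14).

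The inhibitor rose with the antagonists: Diap1 reached 216, 236 and 221 CPM, all above the highest control of 127 CPM (1.05 ± 0.11 (SE), adjusted p = 5.7e-07). Dark rose to 238, 258 and 229 CPM (0.74 ± 0.10 (SE), adjusted p = 5.1e-06). Dronc fell to 127, 95.3 and 126 CPM, from 198 to 252 CPM in the controls (-0.97 ± 0.14 (SE), adjusted p = 1.4e-05). Thus the initiator caspase moved against the antagonists. Dcp-1, at 178 ± 4.03 against 149.8 ± 16.4 CPM (SD, n = 3 each), passed narrowly (0.25 ± 0.10 (SE), adjusted p = 0.0409), and the call ended without control replicate 1 (adjusted p = 0.2) or without HDAC1 knockdown replicate 1, 2 or 3 (0.106, 0.0794 and 0.06). It also ended with the replicate block (adjusted p = 0.0552), with no filter of low counts (0.136) and with the groups fitted alone (0.0793). Against the batch1 controls in place of the main ones, a comparison chosen after seeing the data, rpr (2.03), grim (3.16), hid (0.48), Diap1 (0.37) and Dark (0.29) still rose, Dronc did not pass (log2 fold change -0.28, adjusted p = 0.0801), and Dcp-1 was at -0.12 on the log2 scale.

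Age markers also differed here. Of 10 maternal markers, 7 fell, with sums of 854 to 926 CPM against 2247 to 3839 in the controls. The later-embryo markers summed to 156 to 203 against 90.5 to 109 CPM, and 6 of 15 zygotic markers fell. Their part in the result was not tested.

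In HDAC3 knockdown at stage 5, rpr and grim were also higher than in the controls. 5 members rose and 0 fell, where 34.8% (14.5% higher and 20.4% lower) of all genes passed (median 0.40 against 0.01 over all genes). rpr held 38.3, 31.0 and 26.1 CPM, each above every control (1.26 ± 0.20 (SE), adjusted p = 1.3e-04). grim held 3.67, 1.80 and 1.25 CPM from 9, 8 and 20 counts (2.53 ± 0.79 (SE), adjusted p = 0.0193). hid, at 30.6, 32.1 and 29.9 CPM, lay above all controls but did not pass (0.39 ± 0.15 (SE), adjusted p = 0.0515), nor did skl (0.49 ± 0.28 (SE), adjusted p = 0.184). Diap1 (126, 152 and 130 CPM) passed although it overlapped the controls (0.33 ± 0.11 (SE), adjusted p = 0.032). Dark rose to 196, 179 and 169.9 CPM (0.32 ± 0.10 (SE), adjusted p = 0.0153), and Dcp-1 to 195, 198 and 202 CPM (0.40 ± 0.10 (SE), adjusted p = 0.00432). Dronc did not pass (-0.08 ± 0.14 (SE), adjusted p = 0.671).

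Several of the HDAC3 calls were not stable. The call of grim ended without control replicate 1 (adjusted p = 0.0695) or HDAC3 knockdown replicate 1 (0.0513), that of Dark without HDAC3 knockdown replicate 1 (0.0577), and that of Diap1 without control replicate 1 (0.128), control replicate 2 (0.0907) or HDAC3 knockdown replicate 2 (0.145). The call of Diap1 also ended with no filter of low counts (0.0548) and with the groups fitted alone (adjusted p = 0.0884). Against the batch1 controls rpr still rose (1.03, adjusted p = 5.0e-04), grim did not pass (0.73, adjusted p = 0.268), Dark (-0.12) and Dcp-1 (0.05) were near 0, Diap1 fell (-0.34) and Dronc rose (0.61). In this knockdown, 8 of 10 maternal markers fell, with sums of 898 to 1412 CPM, 3 of 15 zygotic markers fell, later-embryo markers summed to 168 to 208 CPM, and their part in the result was not tested.

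In Gcn5 knockdown at stage 5, with 2 libraries, neither rpr nor hid passed the test. rpr held 13.5 and 13.2 CPM (0.04 ± 0.22 (SE), adjusted p = 0.883), and hid 22.8 and 20.2 CPM (-0.13 ± 0.16 (SE), adjusted p = 0.521). 2 members rose and 2 fell, where 51.7% (27.4% higher and 24.3% lower) of all genes passed, with a median of 0.06 against 0.08 over all genes. skl fell to 2.98 and 2.54 CPM (-1.05 ± 0.33 (SE), adjusted p = 0.0137). Of the machinery, Dcp-1 rose to 206 and 228 CPM (0.53 ± 0.11 (SE), adjusted p = 5.8e-04) and Dark to 203 and 185 CPM (0.42 ± 0.11 (SE), adjusted p = 0.00323), and Dronc fell to 144 and 192 CPM (-0.44 ± 0.15 (SE), adjusted p = 0.0218). grim had 3 and 15 counts in the 2 libraries and did not pass (1.87 ± 0.87 (SE), adjusted p = 0.0826), nor did Diap1 (0.07 ± 0.12 (SE), adjusted p = 0.655).

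The calls of skl and Dronc in the Gcn5 knockdown each ended without control replicate 2 (adjusted p = 0.0772 and 0.0789), that of skl without Gcn5 knockdown replicate 2 (0.0896) and that of Dronc without Gcn5 knockdown replicate 1 (0.275). Fits that leave out a Gcn5 library hold 1 of that group, which is assumed to vary like the libraries of the other groups. With scaling to genes stable between stages, skl (-0.77, adjusted p = 0.0674) and Dronc (-0.16, adjusted p = 0.323) also lost their calls, and Dark did with the compared groups fitted alone (adjusted p = 0.0593). Against the batch1 controls, Dark (-0.05) and Dcp-1 (0.15) did not pass, Dronc was at 0.21 on the log2 scale, hid and Diap1 fell (-0.76 and -0.63), and skl kept a log2 fold change of -1.0 (edgeR adjusted p = 0.0273). Maternal markers summed to 724 to 746 CPM in this knockdown, with 7 of 10 lower than in the controls. Of 15 zygotic markers 8 fell, with sums of 1618 to 1725 against 2243 to 2637 CPM, and follicle cell markers summed to 2.00 to 3.22 against 0 to 0.254 CPM. They and later-embryo markers (109.7 to 140 against 90.5 to 109 CPM) moved beside the members, and their part in the result was not tested.

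**Figure D3:**
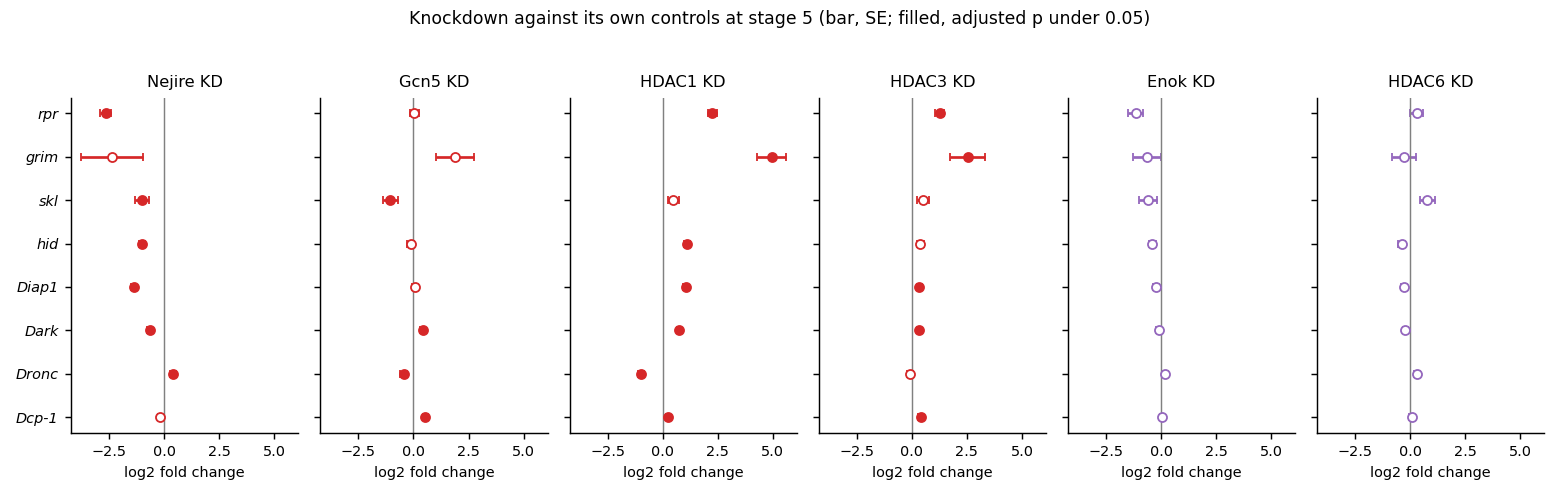
Log2 fold change of each gene in 6 knockdowns at stage 5 against the controls of the same set (horizontal axis, log2 units; bars are SE). Filled points have an adjusted p under 0.05 in edgeR's test; red panels share the main controls and purple panels the batch1 controls. rpr lies at -2.66 in the Nejire panel and at 2.26 in the HDAC1 panel, and every point of the Enok and HDAC6 panels is open.

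Because the 4 main knockdowns share their controls, they were also compared with one another directly. Between Nejire and HDAC1 knockdown, 7 members were lower in Nejire knockdown and 1 higher, where 68.5% (32.9% higher and 35.6% lower) of all genes passed. rpr differed by -4.92 ± 0.23 (SE), adjusted p = 9.2e-12, hid by -2.11 ± 0.15 (SE), adjusted p = 9.1e-10, and Diap1 by -2.44 ± 0.12 (SE), adjusted p = 1.0e-11. Dronc was the member that was higher in Nejire knockdown (1.36 ± 0.14 (SE), adjusted p = 9.2e-08). For grim, 1 count in the Nejire knockdown stood against 220 in the HDAC1 knockdown, a ratio of 220 with a counting interval of 39.1 to 8729.

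Nejire and Gcn5 are both acetyltransferases, and their knockdowns differed in 6 members that were lower in Nejire knockdown and 1 that was higher, where 64% (28.2% higher and 35.8% lower) of all genes passed. The difference in rpr was -2.71 ± 0.26 (SE), adjusted p = 8.8e-08 and that in Diap1 -1.46 ± 0.12 (SE), adjusted p = 1.8e-08. skl, which fell in each of them against the controls, did not differ past the test (0.04 ± 0.34 (SE), adjusted p = 0.919). grim was lower in Nejire knockdown (-4.23 ± 1.11 (SE), adjusted p = 0.0029), a call that ended without Gcn5 knockdown replicate 2, which held 15 of the 18 grim counts (edgeR adjusted p = 0.136, again with 1 Gcn5 library assumed to vary like the others).

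The 2 deacetylase knockdowns differed in 5 members that were higher in HDAC1 knockdown and 1 that was lower, where 41.1% (21% higher and 20.1% lower) of all genes passed. rpr was higher in HDAC1 knockdown by 1.00 ± 0.18 (SE), adjusted p = 2.7e-04, grim by 2.43 ± 0.50 (SE), adjusted p = 9.3e-04, and hid by 0.70 ± 0.14 (SE), adjusted p = 8.1e-04. Diap1 (0.72, adjusted p = 7.5e-05) and Dark (0.42, adjusted p = 0.0022) were also higher, and Dronc was lower (-0.89, adjusted p = 8.8e-05). skl did not differ past the test (-0.00 ± 0.27 (SE), adjusted p = 0.995).

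Knockdown of Enok and of HDAC6 at stage 5 gave no call among the members. For Enok, 0 of 8 members rose and 0 fell, where 3.96% (1.35% higher and 2.61% lower) of all genes passed, and 2 had an unadjusted p under 0.05. rpr held 20.7, 13, 11.9 and 15.9 CPM in the 4 batch1 controls and 8.73 and 5.29 CPM in the Enok knockdown. Both Enok libraries lay below all controls, and rpr did not pass edgeR's test (-1.16 ± 0.34 (SE), adjusted p = 0.0795), while DESeq2 called it and no other member. hid was at 27 ± 3.34 against 35.1 ± 1.84 CPM (SD, n = 2 and 4; log2 fold change -0.39, edgeR adjusted p = 0.181).

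For HDAC6, 0 members rose and 0 fell, where 1.42% (0.833% higher and 0.588% lower) of all genes passed, 2 had an unadjusted p under 0.05, and DESeq2 called 0. skl held 7.91 and 10.1 CPM against 7.92, 3.38, 6.11 and 3.35 in the controls, which overlapped (0.77 ± 0.33 (SE), adjusted p = 0.307). The 2 HDAC6 libraries differed from each other in Diap1, at 117 and 165 CPM. Without replicate 2, whose stage fields conflict, Diap1 was lower than in the controls by -0.53 on the log2 scale (edgeR adjusted p = 0.0484). That fit holds 1 HDAC6 library, which is assumed to vary like the libraries of the other groups.

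At stage 2 the embryo holds RNA laid down in the egg, and rpr, grim and skl were at or near 0 in every group. grim had no count in any stage 2 library, skl had 1 count in a main control, and rpr had 2 counts over the Nejire knockdown and 3 over the Enok knockdown. The other 5 members were tested. The gene that moved most was hid, which is described first.

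hid held 1.99, 2.94 and 2.98 CPM in the main stage 2 controls. In Gcn5 knockdown it held 11.5, 8.13 and 10.9 CPM and in HDAC3 knockdown 13.8, 12.4 and 11.1 CPM. Each of these libraries lay above every control, and hid rose by 1.88 ± 0.27 (SE), adjusted p = 5.2e-05 in Gcn5 knockdown and by 2.17 ± 0.26 (SE), adjusted p = 9.9e-06 in HDAC3 knockdown. In Nejire knockdown it held 3.58, 2.05 and 1.31 CPM and in HDAC1 knockdown 1.81, 1.01 and 3.05 CPM, overlapping the controls, and neither passed (-0.24, adjusted p = 0.721, and -0.71, adjusted p = 0.282). The batch1 stage 2 controls, from the same cross, held 8.43, 6.30 and 5.12 CPM within their own set. On the common scale hid was 2.80 ± 0.692 CPM in the main controls and 6.79 ± 1.59 in the batch1 controls (SD, n = 3 each), beside 10.3 ± 1.93 in Gcn5 and 13 ± 1.46 in HDAC3 knockdown.

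In Gcn5 knockdown at stage 2, 2 of 5 members rose and 1 fell, where 36.9% (19.2% higher and 17.6% lower) of all genes passed. Dcp-1 rose to 84.2, 94.3 and 80.7 CPM from 66.7, 62.1 and 59.8 CPM (0.46 ± 0.08 (SE), adjusted p = 3.3e-04), and Diap1 fell to 181, 176 and 179.6 CPM from 235, 224 and 195 CPM (-0.28 ± 0.07 (SE), adjusted p = 0.00769). In HDAC3 knockdown 1 of 5 rose, where 17.6% (8.76% higher and 8.85% lower) of all genes passed, and that was hid. In HDAC1 knockdown 1 of 5 rose, where 15.9% (8.72% higher and 7.2% lower) passed: Dcp-1 held 81.6, 76.4 and 66.0 CPM, which overlapped the controls (0.27 ± 0.09 (SE), adjusted p = 0.0464). That call ended without control replicate 2 or 3 (adjusted p = 0.108 and 0.131) or HDAC1 knockdown replicate 1 or 2 (0.166 and 0.137).

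In Nejire knockdown at stage 2, 0 of 5 members passed in edgeR, where 10.1% (5.32% higher and 4.8% lower) of all genes did, 0 had an unadjusted p under 0.05, and DESeq2 called 0. In Enok knockdown 0 of 5 passed, where 5.34% (2.16% higher and 3.18% lower) of all genes did, 1 had an unadjusted p under 0.05, and DESeq2 called 0. The nearest was Dark, which held 71.2 and 66.6 CPM where the controls held 49.9, 53.3 and 57.6 (0.36 ± 0.10 (SE), adjusted p = 0.057). In HDAC6 knockdown 0 of 5 passed, where 3.16% (2.51% higher and 0.657% lower) of all genes did, 1 had an unadjusted p under 0.05, and DESeq2 called 0.

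**Figure D4:**
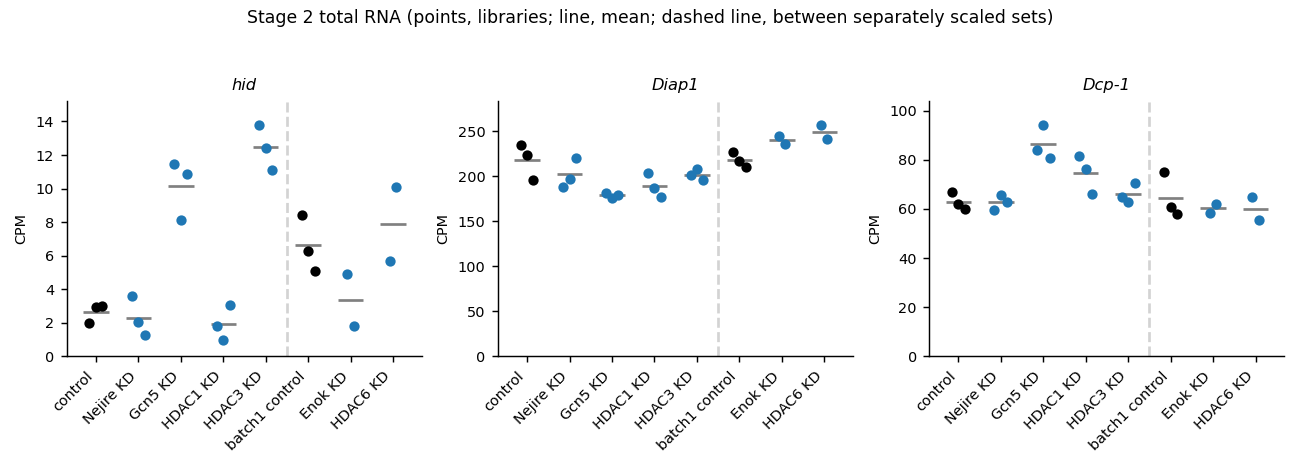
CPM of hid, Diap1 and Dcp-1 in every stage 2 library (vertical axes, linear from 0; points are libraries and lines are means; controls are black). The dashed line parts the main set from batch1, which were scaled separately. hid lies between 8.13 and 13.8 CPM in the Gcn5 and HDAC3 knockdowns, above the main controls at 1.99 to 2.98 CPM.

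Whether a knockdown acted differently at the 2 stages was tested as an interaction in the main set, for the 5 members with RNA at stage 2. Members with 3 or fewer counts over any group compared were left out. The shares over all genes are of the 8675 genes in the fit, without that limit, so the 2 sets of genes are unlike. For HDAC1, 3 members had a higher effect at stage 5 and 1 a lower one, where 37.4% (18.8% higher and 18.6% lower) of all genes passed. For Nejire, 2 had a lower effect at stage 5, where 20.1% (8.88% higher and 11.2% lower) passed. For Gcn5, 1 was higher and 1 lower, where 32% (13.7% higher and 18.3% lower) passed, and for HDAC3 likewise 1 and 1, where 22.8% (8.05% higher and 14.7% lower) passed. hid had the largest differences, and it went both ways: its knockdown effect was lower at stage 5 than at stage 2 for Gcn5 (-2.0 ± 0.31 (SE), adjusted p = 1.0e-05) and HDAC3 (-1.76 ± 0.29 (SE), adjusted p = 7.8e-05), and higher for HDAC1 (1.90 ± 0.40 (SE), adjusted p = 3.4e-04). In HDAC1 knockdown at stage 2, hid had only 7 to 8 counts per library, and its change there did not pass. Diap1 had a lower effect at stage 5 for Nejire (-1.29 ± 0.14 (SE), adjusted p = 1.3e-07) and a higher one for HDAC1 (1.34 ± 0.14 (SE), adjusted p = 1.2e-08).

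The rescues compared a wild-type with a catalytically dead protein, and no member passed in either pair. For Nejire, 0 of 7 members tested passed, where 0.258% (0.16% higher and 0.0983% lower) of all genes did, 2 had an unadjusted p under 0.05, and DESeq2 called 0. rpr held 0.473, 0.835 and 0.542 CPM with the wild-type protein and 0.647, 1.02 and 0.889 with the dead one (-0.45 ± 0.42 (SE), adjusted p = 0.636). Diap1 held 29.2, 28.2 and 24.1 against 35.4, 32.2 and 31.2 CPM, every wild-type library being lower, and did not pass (-0.27 ± 0.10 (SE), adjusted p = 0.264). For Gcn5, 0 of 7 passed, where 0% (0% higher and 0% lower) of all genes did, 0 had an unadjusted p under 0.05, and DESeq2 called 0. hid held 47.2, 57.8 and 73.6 CPM with wild-type and 43.5, 68.8 and 49.2 with dead Gcn5 (0.14 ± 0.23 (SE), adjusted p = 1).

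The labels put no control with the rescues, so that their levels can only be set beside the other groups on the common scale, with no test. There nej was 3177 ± 300 and 3058 ± 99.45 CPM in the wild-type and dead Nejire rescues (SD, n = 3 each). It was 248 ± 74.9 CPM in Nejire knockdown and 961 ± 474 in the main controls (n = 3 each). Gcn5 was 7358 ± 1075 and 6370 ± 817 CPM in the wild-type and dead Gcn5 rescues, where nej was 2196 and 1981 CPM. Gcn5 was 29.9 ± 4.93 CPM in Gcn5 knockdown (n = 2) and 223 ± 26.6 in the main controls. rpr was 0.663 ± 0.215 and 0.909 ± 0.205 CPM in the Nejire wild-type and dead rescues (SD, n = 3 each), beside 2.06 ± 0.681 in Nejire knockdown and 12.1 ± 1.29 in the main controls. In the Gcn5 rescues rpr was 2.06 ± 0.508 and 1.48 ± 0.50 CPM, beside 12.1 ± 0.424 in Gcn5 knockdown (SD, n = 3, 3 and 2). hid went the other way in the Gcn5 rescues, at 60.7 ± 13.7 and 54.5 ± 14.8 CPM beside 19.4 ± 2.07 in the knockdown and 22.2 ± 0.670 in the controls. Thus rpr lay below and hid above the main controls in the Gcn5 rescues, and rpr lay below them in the Nejire rescues as well. These controls are from another cross. Within-pair scaling put the zygotic marker sum at 2557 to 2658 and 2319 to 2516 CPM in the wild-type and dead Nejire rescues. It was 2280 to 3025 and 1987 to 2835 CPM in those of Gcn5. In the stage 5 fit of the main set, it was 487 to 737 CPM in Nejire knockdown and 2243 to 2637 in the controls. Maternal markers summed to 3578 to 3936 and 3296 to 3979 CPM for Nejire, and 2976 to 4674 and 2399 to 4727 CPM for Gcn5. Later-embryo markers summed to 29.6 to 35.6 and 27.5 to 59.0 CPM for Nejire, and 42.6 to 129.8 and 59.2 to 157 CPM for Gcn5. By library name, the Nejire rescues share no parent with the Nejire knockdown or the controls. The Gcn5 rescues came from other crosses than the Gcn5 knockdown. Cross and set therefore cannot be told apart from the rescue protein when these levels are set beside the knockdowns and controls. The part of these markers, the nej and Gcn5 levels and the set was not tested.

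In nuclear RNA, which is closer to ongoing transcription, Nejire knockdown was compared with controls after scaling to the ERCC spike-in. 1 of 8 members fell and 0 rose, where 13.4% (3.52% higher and 9.91% lower) of all genes passed, and 4 had an unadjusted p under 0.05. The member that passed was grim, at 1.70, 1.53 and 1.43 CPM in the controls and 0.0284, 0.147 and 0.225 CPM in the knockdown, from 1, 4 and 2 counts (-3.68 ± 1.14 (SE), adjusted p = 0.0137). rpr held 5.65, 4.26 and 3.74 CPM in the controls and 0.199, 0.478 and 2.25 in the knockdown (-2.32 ± 0.99 (SE), adjusted p = 0.109). Diap1 held 220.5, 209 and 178 CPM against 29.1, 25.2 and 83.1 (-2.15 ± 0.83 (SE), adjusted p = 0.0642), and skl 6.12, 6.12 and 5.74 against 0.652, 1.07 and 1.69 (-2.43 ± 0.97 (SE), adjusted p = 0.0792). Every knockdown library of rpr, grim, skl, Diap1 and Dark lay below every control, as it did for 23.3% of all genes tested, and no member lay wholly above, beside 7.33% of all genes.

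Markers moved in nuclear RNA too. Of 15 zygotic markers 13 fell, with sums of 141 to 1263 against 4229 to 5613 CPM in the controls, and 3 of 6 later-embryo markers tested fell. Maternal markers summed to 2973 to 11610 against 1596 to 3176 CPM, and none of 10 passed in edgeR (0 had an unadjusted p under 0.05). Follicle cell markers summed to 2.07 to 12.8 against 14.5 to 32.3 CPM. Of the 3 of them that were tested, Cp36 (-3.28) and dec (-4.19) fell and psd (6.80, from 1 count in the controls) rose on the log2 scale, and the part of these markers in the result was not tested.

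The third knockdown library stood apart from the other 2 in this scaling. Its ERCC counts stood at 69.5 CPM relative to the fly counts, against 282 and 284 in replicates 1 and 2 and 98.5 to 134 in the controls. hid showed it most, at 14.4, 43.6 and 253 CPM in the 3 knockdown libraries against 76.9, 77.9 and 72.0 in the controls (0.45 ± 0.78 (SE), adjusted p = 0.88). Without that library 7 members fell, where 77.4% of all genes passed with a median log2 fold change of -1.27, with hid at -1.39, rpr at -3.76 and Diap1 at -2.90 on the log2 scale, and without any one of the other 5 libraries none passed, so that grim lost its call (log2 fold change from -3.08 to -3.93, adjusted p from 0.0548 to 0.201). With scaling on the fly genes themselves, 7 members passed, where 60.5% of all genes did: rpr (-2.21), grim (-3.11), skl (-1.86), Diap1 (-1.77), Dark (-1.14) and Dcp-1 (-0.61) were lower and Dronc (0.80) higher in the knockdown.

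**Figure D5:**
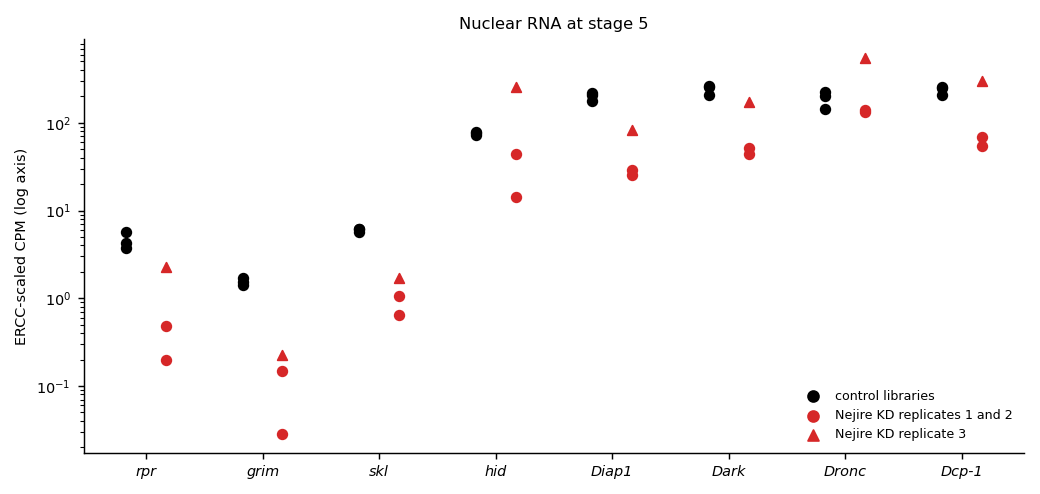
ERCC-scaled CPM of each gene in the 6 nuclear RNA libraries (vertical axis, logarithmic). Black points are controls, red circles Nejire knockdown replicates 1 and 2, and the red triangle replicate 3. The triangle lies above both circles for all 8 genes, and for hid, Dronc and Dcp-1 above the controls.

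Over all 20 total RNA groups on the common scale, the highest group lay wholly above the next for rpr, grim, Dark and Dronc, and overlapped it for the other 4 members. For rpr, HDAC1 knockdown at stage 5 (59.0 ± 7.52 CPM) and HDAC3 knockdown (30.1 ± 5.76) each lay wholly above the group below (SD, n = 3 each). HDAC6 knockdown, both stage 5 control sets and Gcn5 knockdown followed with overlapping ranges, from 17.8 down to 12.1 CPM, then Enok knockdown at 6.74 ± 2.28 CPM. For grim, HDAC1 knockdown at stage 5 (9.65 ± 0.557 CPM) lay wholly above HDAC3 knockdown (2.12 ± 1.20). skl had no such step among the stage 5 groups outside the rescues, from HDAC6 knockdown (8.76 ± 1.64 CPM) down to Gcn5 knockdown (2.49 ± 0.329).

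hid was highest in both Gcn5 rescues and HDAC1 knockdown, whose ranges overlapped, and lowest in HDAC1 knockdown at stage 2 (1.92 ± 0.971 CPM). Diap1 was highest in the stage 2 groups, led by HDAC6 knockdown (255 ± 10.7 CPM), and lowest in Nejire knockdown and its rescues, down to 29.2 ± 3.08 CPM. HDAC1 knockdown was the one stage 5 group with its mean of Diap1 (213 ± 8.61 CPM) inside the range of the stage 2 group means. By single libraries, the highest batch1 stage 5 control (171.9 CPM) also lay just above the lowest stage 2 library (171.4 CPM, HDAC1 knockdown). Dark was highest in HDAC1 knockdown at stage 5 (229.8 ± 13.4 CPM), clear of the next group. Dronc was highest in Nejire knockdown at stage 5 (280.4 ± 12.7 CPM), clear of the next, and lowest in HDAC1 knockdown at stage 5 (110.3 ± 17.6 CPM). Group means of Dcp-1 ran from 124 to 196 CPM at stage 5, rescues included, and from 61.2 to 87.6 CPM at stage 2.

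Across the 20 group means of log2(CPM + 1), rpr followed Dark most closely among the members (Pearson r = 0.964), then skl (0.935), grim (0.855), Dcp-1 (0.849) and hid (0.675). Dronc ran against all 7 others, with r from -0.372 to -0.712. These are descriptions over groups that share stage, sets and controls. Close genes were sought among 4809 coding genes with a highest group mean of at least 10 CPM. Genes with a symbol made of CG or CR and digits were left out, so a gene without a name may be closer. The 3 closest to rpr were Six4, RhoL and ldbr (r = 0.971 each). Those closest to grim were metro (0.923), amd (0.869) and Arp53D (0.859), and those closest to skl were fj (0.975), Jhe (0.974) and Tmhs (0.973). For hid they were hiw (0.945), Ccdc85 and Asph (0.929 each), and for Diap1 Tbcd (0.981), slim (0.979) and Alg1 (0.975). For Dark they were Pvf3 (0.990), RhoL (0.980) and NimC4 (0.977), for Dronc STUB1 (0.953), Snx6 (0.943) and rl (0.938), and for Dcp-1 Lapsyn (0.983), Nup93-2 and lft (0.982 each).

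A list of 31 other genes of the cell death and stress pathways was counted in each comparison. From stage 2 to stage 5 in the main controls, 12 of 26 tested rose and 10 fell, where 79.8% of all genes passed. The TNF ligand egr rose from 1.56 ± 0.0926 to 260.1 ± 43.3 CPM (SD, n = 3 each; log2 fold change 7.35 ± 0.20 (SE), adjusted p = 6.4e-09), and its receptor gene grnd rose from 0 counts. Debcl, a Bcl-2 family gene, and morgue, whose product promotes the turnover of Diap1, fell (log2 fold changes -2.62 and -3.16). In the batch1 controls 11 of 26 rose and 12 fell, where 87.2% of all genes passed, with egr, grnd, Debcl and the checkpoint kinase gene grp (log2 fold change -2.72) the most significant.

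In Nejire knockdown at stage 5, 7 of 28 rose and 3 fell, where 37.9% of all genes passed. The ligand and its receptor fell together, egr from 257 ± 37.0 to 42.7 ± 6.39 CPM (SD, n = 3 each; -2.59 ± 0.14 (SE), adjusted p = 1.2e-10) and grnd from 63.3 ± 13.3 to 9.81 ± 1.78 CPM (-2.66 ± 0.17 (SE), adjusted p = 9.2e-10). The second inhibitor of apoptosis, Diap2, rose by 0.42 ± 0.11 (SE), adjusted p = 0.00654, while Diap1 fell. In HDAC1 knockdown 7 rose and 10 fell, where 56% of all genes passed: morgue rose from 5.26 ± 0.408 to 23.9 ± 1.1 CPM (SD, n = 3 each; 2.19 ± 0.27 (SE), adjusted p = 3.3e-06), and the JNK gene bsk and the ATR kinase gene mei-41 rose (log2 fold changes 1.58 and 1.44), while Traf6 fell (-1.40). In Gcn5 knockdown 5 rose and 8 fell, where 51.7% of all genes passed, bsk (1.26), mei-41 (1.26) and morgue (1.76) being higher and Diap2 (-0.88) lower. In HDAC3 knockdown 4 rose and 8 fell, where 34.8% of all genes passed, with bsk higher (0.75) and Diap2 (-0.73), egr (-0.61) and the Chk2 kinase gene lok (-0.67) lower. In Enok knockdown 1 of 27 rose (grp) and 2 fell (Xrp1, a stress transcription factor gene, and grnd), and in HDAC6 knockdown 1 fell (Xrp1), where 3.96% and 1.42% of all genes passed.

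At stage 2, of 24 pathway genes tested, 1 rose and 2 fell in Nejire knockdown, 1 and 5 in Gcn5 knockdown, 2 and 3 in HDAC1 knockdown, 5 and 2 in HDAC3 knockdown, 1 and 2 in Enok knockdown and 1 and 0 in HDAC6 knockdown. Over all genes, 10.1%, 36.9%, 15.9%, 17.6%, 5.34% and 3.16% passed in these 6 comparisons. Xrp1 was the one riser in Nejire (log2 fold change 1.87), Gcn5 (2.62), Enok (1.69) and HDAC6 knockdown (1.31), of which the first pair and the second pair each share a set of controls. In HDAC3 knockdown, where hid rose, bsk rose from 13.9 ± 3.46 to 104 ± 4.65 CPM (SD, n = 3 each; 2.94 ± 0.13 (SE), adjusted p = 8.3e-11), and the JNK phosphatase gene puc (1.04), egr (2.40) and grp (0.43) also rose. The list's median log2 fold change lay between -0.05 and 0.04 in these 6 comparisons, beside -0.01 to 0.01 over all genes.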

How the data were processed

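The authors deposited raw counts per gene for total RNA and for nuclear RNA with 92 ERCC transcripts. Per the submitters' processing notes, bcl2fastq 2.20.0.422 and the dm6 build were used; for the aligner, counter, annotation and strand this was not given in the sources used here. Gene symbols and coordinates came from Ensembl release 115, which matched 17626 of 17753 gene IDs (99.3%).

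Counts were tested with edgeR 4.0.16 in R 4.3.3 (quasi-likelihood test, filterByExpr with a minimum count of 10 and a total of 15, TMM scaling, Benjamini-Hochberg over all genes tested, threshold 0.05). For nuclear RNA the ERCC counts, summed per library, set the scale. CPM were scaled within each fit, so a library's value differs slightly between comparisons, and once over all total RNA libraries for the common scale. SE was taken as log2 fold change over the square root of F. Floors and counting intervals (95%) cover counting error only. p-values set the difference tested against the spread between libraries within groups. This spread was estimated over all groups of a fit together, so for small groups it rests in part on the libraries of other groups. DESeq2 1.42.0, other scalings, no filter, a replicate block and leaving out each library were alternatives. The edgeR fits other than that of the interactions were tried on simulated data first, with results not given here. DESeq2 was not tried in this way.

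The members, the pathway and marker lists and the tests were chosen with earlier results of these data known. Named were the 8 members, up to 4 pathway genes per comparison with the lowest adjusted p among those that passed, the targeted genes, and for each member the 3 coding genes with the highest r over the 20 total RNA groups among those reaching 10 CPM. Symbols made of CG or CR and digits were left out of that search. Genes beside the cluster, and the batch1 controls for the main knockdowns, were added after values were seen. No sequence was used.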

Additional observations from a re-analysis of the deposited data

Results flagged for a closer look

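The effect of a knockdown differed between stage 5 and stage 2 for 10 pairs of gene and knockdown, by edgeR's interaction test in the main set. Each value is the log2 fold change at stage 5 minus that at stage 2. For Nejire it was -1.29 ± 0.14 (SE), adjusted p = 1.3e-07 for Diap1 and -0.56 ± 0.15 (SE), adjusted p = 0.00901 for Dark. For Gcn5 it was -2.0 ± 0.31 (SE), adjusted p = 1.0e-05 for hid and 0.50 ± 0.16 (SE), adjusted p = 0.0164 for Dark. For HDAC1 it was 1.90 ± 0.40 (SE), adjusted p = 3.4e-04 for hid, 1.34 ± 0.14 (SE), adjusted p = 1.2e-08 for Diap1, 0.85 ± 0.15 (SE), adjusted p = 5.0e-05 for Dark and -0.91 ± 0.15 (SE), adjusted p = 1.8e-05 for Dronc. For HDAC3 it was -1.76 ± 0.29 (SE), adjusted p = 7.8e-05 for hid and 0.45 ± 0.14 (SE), adjusted p = 0.0194 for Diap1.

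hid carried opposite signs: it was higher than the controls at stage 2 in Gcn5 and HDAC3 knockdown and at stage 5 in HDAC1 knockdown. The value of Dark for Gcn5 lost its call without Gcn5 knockdown stage 5 replicate 1 (adjusted p = 0.0984), stage 2 control replicate 2 (0.0767) or Gcn5 knockdown stage 2 replicate 3 (0.0512). That of Diap1 for HDAC3 lost it without stage 5 control replicate 1 (0.0834), HDAC3 knockdown stage 5 replicate 2 (0.0765) or stage 2 control replicate 2 (0.0588). No library stood far from the others in the 4 batch1 stage 5 controls, the one group large enough for that check, in any of the 8 genes.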

How the results depend on the processing

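Of 306 recomputed counts of members called, 35 moved by over 1.5 times, and of 1982 recomputed values of single members, 8 reversed sign with a call on at least one side. Single members lost a call in 38 refits with one library left out and 20 under other settings, gained one in 15 and 38, and changed sign with no call on either side in 43 and 20. For HDAC3 at stage 5 the count of 5 became 3 with the groups fitted alone, 3 against the batch1 controls, and 3 to 5 with one library left out. For Gcn5 at stage 5, leaving out one library gave 2 to 4. For Enok at stage 5 the count of 0 became 1 (rpr) with no filter, with the groups fitted alone and in DESeq2, and for HDAC6 at stage 5 it was 0 to 1 with one library left out. For HDAC1 at stage 2 the count of 1 became 0 with no filter, with the groups alone and with the replicate block, and was 0 to 1 with one library left out. For Enok at stage 2 the count of 0 became 1 (Dark) with no filter and with the replicate block. No comparison with 3 or more pairs of the same replicate number had every correlation of deviations above 0.1. Of those with 2 pairs, Enok at stage 2 (0.336 and 0.215) and Gcn5 at stage 5 (0.190 and 0.117) did, and the others did not. Deviations from the mean of so few libraries depend on one another, so these values cannot settle whether replicate numbers pair samples. The block is given for completeness. In the interactions, Nejire's 2 became 4 in DESeq2, HDAC3's 2 became 4 with RLE scaling, stable-gene scaling and DESeq2 and 1 to 3 with one library left out, and Gcn5's 2 became 1 to 3. In nuclear RNA the count of 1 became 7 with TMM on the fly genes, 4 in DESeq2 and 0 to 7 with one library left out. Signs reversed against the batch1 controls for Diap1 (-0.63), Dark (-0.05) and Dronc (0.21) in Gcn5 knockdown, for Dcp-1 (-0.12) in HDAC1 knockdown and for Diap1 (-0.34), Dark (-0.12) and Dronc (0.61) in HDAC3 knockdown, and for hid in nuclear RNA without Nejire knockdown replicate 3, where leaving out one library gave -1.39 to 0.97. The causes were not tested. Scaling to genes stable between stages moved the median log2 fold change of all genes from 0.08 to 0.37 for Gcn5, 0.03 to 0.36 for HDAC1 and 0.01 to 0.18 for HDAC3 at stage 5, and the calls higher and lower to 3598 and 1372, 3689 and 1482, and 2133 and 1209, with 935 and 2039 for Nejire; at stage 2 they became 1660 and 866 for Gcn5 and 721 and 380 for HDAC1. Calls over all genes moved by over 1.5 times from 3124 to 6027 for Nejire at stage 5 (batch1 controls), from 323 to 29 to 912 for Enok and 116 to 15 to 549 for HDAC6 at stage 5, from 700 to 342 for Nejire, 1101 to 585 for HDAC1, 358 to 202 to 583 for Enok and 212 to 57 to 370 for HDAC6 at stage 2, from 21 to 7 to 478 for the Nejire rescues and from 1248 to 548 to 7272 in nuclear RNA. Depth limits grim, with 5 counts in the main controls, and rpr, grim and skl at stage 2. It also limits hid in HDAC1 knockdown at stage 2, with 7 to 8 counts per library.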

Other observations

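In nuclear RNA, 1 of 28 other pathway genes tested rose in Nejire knockdown and 3 fell, where 13.4% of all genes passed. These calls rest on the ERCC scaling in which the third knockdown library stood apart. Whether they hold without single libraries was not tested. The TNF ligand gene egr (-4.50 ± 0.95 (SE), adjusted p = 8.1e-05) and both TNF receptor genes, grnd (-4.12 ± 0.90 (SE), adjusted p = 1.3e-04) and wgn (-3.23 ± 0.85 (SE), adjusted p = 0.00233), were lower. Xrp1, a stress transcription factor gene, was higher (3.17 ± 0.83 (SE), adjusted p = 0.00202). In total RNA it rose in this knockdown at stage 2. Its knockdown effect there was lower at stage 5, the stage of the nuclear RNA, than at stage 2 by edgeR's interaction test.

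Between Nejire and HDAC1 knockdown at stage 5, 12 of 28 pathway genes were higher in Nejire knockdown and 8 lower, where 68.5% of all genes passed, the most significant being egr (-2.72), grnd (-3.16), bsk (-1.94) and mei-41 (-1.61), all lower. Between Nejire and Gcn5 knockdown 10 were higher and 7 lower, where 64% of all genes passed, with grnd (-3.28), egr (-2.40) and mei-41 (-1.43) lower and Diap2 (1.31) higher. Between HDAC1 and HDAC3 knockdown 7 were higher in HDAC1 knockdown and 7 lower, where 41.1% of all genes passed, with mei-41 (1.16), egr (0.73) and morgue (1.35) higher and Traf6 (-0.84) lower. These values are log2 fold changes from edgeR, each with an adjusted p under 0.05.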
